A study of Mus musculus with 6 samples.

Results

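The mitochondrial genome of the mouse was represented by 37 of the 55414 genes in the deposited table. The members were every gene that the table places on chromosome MT, with no use of measured values. They comprised 13 protein genes, 2 ribosomal RNA (rRNA) genes and 22 transfer RNA (tRNA) genes. Microglia are the macrophages that reside in the brain, and the RNA was taken from adult microglia of C57BL/6 mice aged 10 months. The genotype was Selk-/- in 3 libraries, a knockout of Selenok, which encodes an endoplasmic reticulum selenoprotein, and wild type (WT) in 3 libraries. How the allele was made, and whether it is deleted in all cells or in some, was not stated in the labels. In each group the title of replicate 3 carries 2 numbers, and whether these libraries pool animals is not given. The labels do not say that libraries came from separate animals, so each p-value speaks only to differences among these 6 libraries, part of which may be technical.

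Mitochondrial DNA is a small circle that is transcribed from both strands into long precursors. Most of its protein genes are flanked by tRNA genes, and enzymes that cut out the tRNAs release the messenger and ribosomal RNAs between them. The proteins are core subunits of the respiratory chain and of ATP synthase, and all other proteins needed to copy, transcribe and translate this genome are imported from the cytosol. Microglia use this chain for oxidative phosphorylation and shift between it and glycolysis with their state of activation.

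The sequences of 4 tRNA genes are shown because these are the tRNA genes whose counts differed between the groups at an unadjusted p under 0.05. The first 3 lie next to each other between mt-Nd4 and mt-Nd5, and mt-Te lies between mt-Nd6 and mt-Cytb. The sequences are those of the GENCODE M21 transcripts (GRCm38), written 5′ to 3′ as DNA with the anticodon in capitals. mt-Th reads histidine codons, mt-Ts2 serine codons, mt-Tl2 leucine codons and mt-Te glutamate codons.
mt-Th: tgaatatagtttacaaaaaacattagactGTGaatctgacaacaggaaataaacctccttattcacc
mt-Ts2: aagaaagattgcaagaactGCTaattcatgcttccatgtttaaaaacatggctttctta
mt-Tl2: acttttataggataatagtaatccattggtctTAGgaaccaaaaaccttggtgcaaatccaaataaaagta
mt-Te: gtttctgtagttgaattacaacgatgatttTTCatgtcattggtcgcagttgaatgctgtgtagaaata
On chromosome MT, mt-Th spans 11546 to 11612, mt-Ts2 11613 to 11671, mt-Tl2 11671 to 11741 and mt-Te 14071 to 14139. The first 3 are read from the same strand as most mitochondrial genes, and mt-Te from the opposite strand. mt-Ts2 and mt-Tl2 share 1 base, the A that ends one and begins the other.

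Library totals were 27541487, 26026236 and 21112082 counts in replicates 1 to 3 labelled Selk-/-, and 27562741, 26694358 and 28123871 in WT replicates 1 to 3. At these depths 3 counts, the limit that a count of 0 allows, correspond to 0.107 to 0.142 CPM, that is, counts scaled to a common library total, for counting error only. Selenok did not check the genotype label: it had 112, 108 and 109 CPM in libraries labelled Selk-/- and 112, 125 and 120 CPM in WT libraries, a log2 fold change of -0.12 (SE 0.0667; edgeR adjusted p = 0.381). Summed small nucleolar RNA (snoRNA, which guides chemical modification of rRNA) set 2 libraries apart, with 347, 47.5 and 56.8 CPM in replicates 1 to 3 labelled Selk-/- and 333, 339 and 344 CPM in WT libraries. The 9 microglial markers were present in each library and summed to 20423, 19495 and 20377 CPM in libraries labelled Selk-/-, against 23477, 23929 and 23933 CPM in WT libraries. Neutrophil markers summed to 410, 5907 and 1070 CPM in libraries labelled Selk-/-, and to 751, 475 and 1170 CPM in WT libraries. Border macrophage markers summed to 294, 564 and 469 CPM in libraries labelled Selk-/-, against 713, 955 and 654 CPM in WT libraries. Monocyte markers summed to 96.7, 582 and 160 CPM in libraries labelled Selk-/-, and to 101, 99.3 and 147 CPM in WT libraries. Endothelial markers had 4659, 3620 and 3400 CPM in libraries labelled Selk-/-, against 2889, 3599 and 3485 CPM in WT libraries. Choroid plexus markers had 2253, 3067 and 3017 CPM in libraries labelled Selk-/-, against 2368, 3415 and 2114 CPM in WT libraries. Mural markers had 1829, 1669 and 1291 CPM in libraries labelled Selk-/-, against 1198, 1335 and 1386 CPM in WT libraries. Each of the other lists summed to at most 395 CPM in any library. No listed marker of any of the 12 cell types was at 0 in all libraries. The part of these libraries and cell types in the results below was not tested, except where a value without the libraries is given. In such bulk RNA, fewer cells of a type and less RNA per cell cannot be told apart.

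Mitochondrial RNA as a whole differed little between the groups, while its 3 classes did not move alike. The 37 genes held 3.95%, 3.72% and 4.19% of all counts in libraries labelled Selk-/-, against 3.79%, 4.16% and 3.93% in WT libraries, so the groups overlapped. Near-identical nuclear copies of 7 protein genes, described below, held a further 0.950% to 1.11% of each library total. The sums here leave those counts out, so the level of the protein class is uncertain. The 13 protein genes summed to 34690, 34835 and 38109 CPM in libraries labelled Selk-/-, against 32033, 35992 and 34437 CPM in WT libraries. Their means were 35878 ± 1933 CPM in libraries labelled Selk-/- and 34154 ± 1995 CPM in WT libraries (SD, n = 3 each). That difference of 5.05% was smaller than the spread within either group. Both rRNAs together had 4924, 2577 and 3619 CPM in libraries labelled Selk-/-, against 4873, 5741 and 4779 CPM in WT libraries. Replicate 1 labelled Selk-/- thus lay among the WT libraries, and replicates 2 and 3 lay below all of them. The 22 tRNAs together had 222, 232 and 237 CPM in libraries labelled Selk-/-, against 208, 231 and 188 CPM in WT libraries, and these ranges overlapped.

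**Figure D1:**
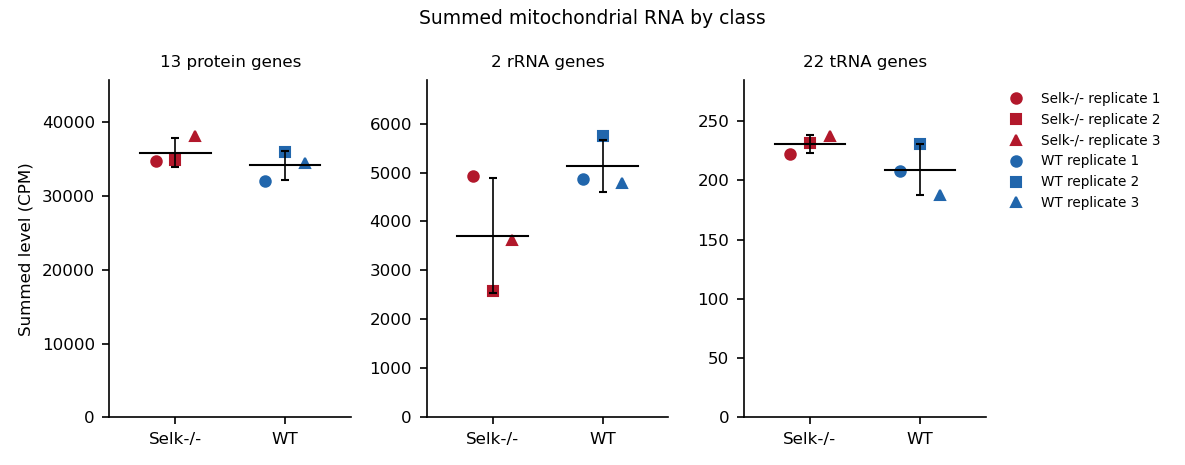
Summed level of each class of mitochondrial RNA in CPM of TMM-scaled totals, by library, in the group labelled Selk-/- and in WT; markers are libraries, horizontal lines are group means and bars are SD (n = 3 each). Protein and tRNA sums overlap between the groups, and the rRNA sum is lowest in Selk-/- replicates 2 and 3, at 2577 and 3619 CPM.

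Within mitochondrial RNA, the shares of rRNA and of messenger RNA differed in 2 of the libraries labelled Selk-/-. Protein genes held 87.1%, 92.5% and 90.8% of mitochondrial counts in libraries labelled Selk-/-, against 86.3%, 85.8% and 87.4% in WT libraries. The rRNAs held 12.4%, 6.85% and 8.62% in libraries labelled Selk-/-, against 13.1%, 13.7% and 12.1% in WT libraries. The tRNA share was 0.557%, 0.615% and 0.565% in libraries labelled Selk-/-, against 0.560%, 0.550% and 0.476% in WT libraries. Counts at the nuclear copies of protein genes are left out of these shares, so the size of each share is uncertain. Mature tRNAs are short and heavily modified, and these counts may also hold pieces of precursors, which the counts do not tell apart.

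The counts were tested across all genes with edgeR's quasi-likelihood test, adjusted by the method of Benjamini and Hochberg over the 17739 genes that passed a filter on low counts. Of the 37 members 35 passed the filter, and mt-Td and mt-Tg, with 5 to 8 counts per library, did not. No member passed an adjusted p of 0.05, and neither did any other gene (0.0% of genes tested). At an unadjusted p under 0.05 there were 6 members, 17.1% of those tested, against 19.1% of all genes. All 6 were higher in libraries labelled Selk-/-, a direction that held for 9.34% of all genes at that p. The CPM of the 2 groups did not overlap for 9 members (25.7%), all higher in libraries labelled Selk-/-, against 26.2% of all genes tested in either direction and 12.5% in that direction. Without regard to direction, the share of members past either line was thus near that of all genes. The median log2 fold change was 0.10 over the 35 members and -0.01 over all genes tested, with 21 members above 0 and 14 below, where 48.7% of all genes were above 0. DESeq2, run as an alternative on the same genes, called 3 members at an adjusted p of 0.05, mt-Nd6, mt-Te and mt-Cytb, all higher. These were 3 of the 23 members with an adjusted p from DESeq2 (13.04%). It called 9.15% of all genes with such a p, 5.27% as higher and 3.88% as lower.

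**Figure D2:**
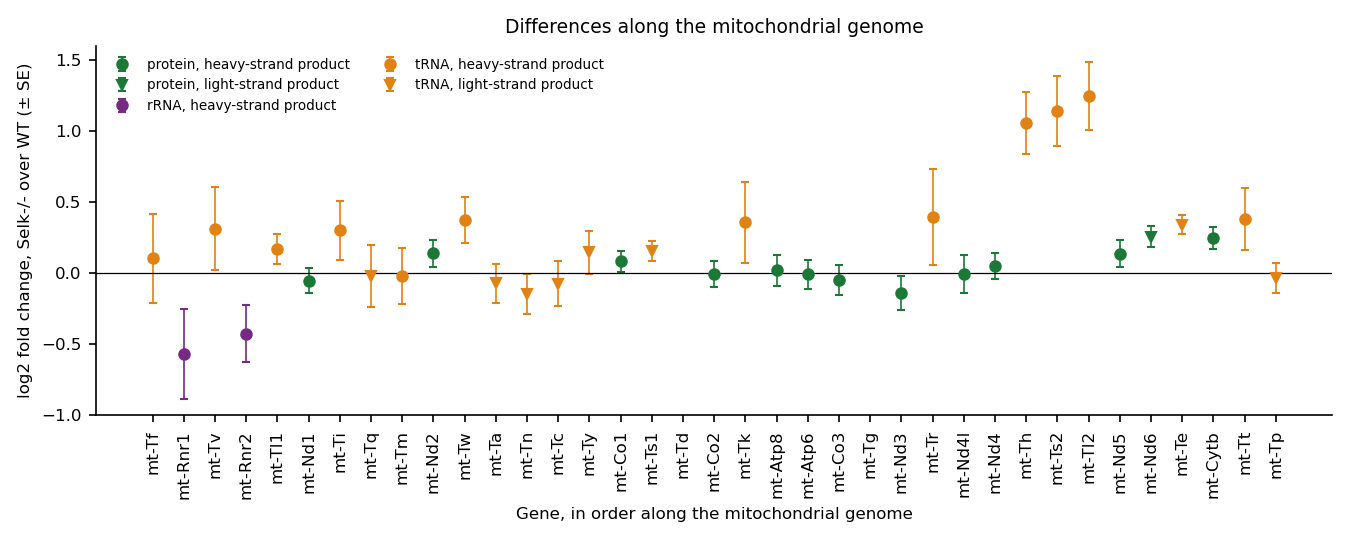
Log2 fold change of the group labelled Selk-/- over WT (± SE, edgeR) for the 35 tested mitochondrial genes, in their order along the genome; colour gives the RNA class and marker shape the strand, and mt-Td and mt-Tg, not tested, have no point. Protein genes lie between -0.14 and 0.26, both rRNAs lie below 0, and mt-Th, mt-Ts2 and mt-Tl2 stand together above 1.

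Both rRNAs averaged lower in libraries labelled Selk-/-, through 2 of the 3 libraries, and neither passed the test. mt-Rnr1, the 12S RNA of the small mitochondrial ribosomal subunit (MT positions 70 to 1024), had 1452, 589 and 881 CPM in libraries labelled Selk-/-, against 1345, 1568 and 1431 CPM in WT libraries. Its log2 fold change of -0.57 (SE 0.315; edgeR adjusted p = 0.379) had a 95% interval of -1.34 to 0.20. mt-Rnr2, the 16S RNA of the large subunit (MT positions 1094 to 2675), had 3472, 1988 and 2739 CPM in libraries labelled Selk-/-, against 3528, 4173 and 3348 CPM in WT libraries. For mt-Rnr2 it was -0.43 (SE 0.200; edgeR adjusted p = 0.302), with a 95% interval of -0.91 to 0.05. Replicate 1 labelled Selk-/- was at the WT level for both genes, at 100.3% of the WT mean for mt-Rnr1 and 94.3% for mt-Rnr2. Replicate 2 held 40.7% and 54.0% of the WT mean for mt-Rnr1 and mt-Rnr2, and replicate 3 held 60.8% and 74.4%.

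The same 2 libraries, Selk-/- replicates 2 and 3, were the ones with low snoRNA. They were also low in genes of the biotype misc_RNA, which summed to 226, 61.9 and 78.5 CPM in libraries labelled Selk-/-, against 198, 165 and 154 CPM in WT libraries. Small nuclear RNA summed to 49.5, 26.4 and 31.8 CPM in libraries labelled Selk-/-, against 49.7, 35.7 and 54.0 CPM in WT libraries. Nuclear genes of the biotype rRNA did not follow that order, with 239, 135 and 372 CPM in libraries labelled Selk-/-, against 239, 214 and 253 CPM in WT libraries. With the snoRNA split as a block, an alternative chosen after seeing the data, the log2 fold change was 0.0039 for mt-Rnr1 and -0.085 for mt-Rnr2. No WT library is on the low side of that split, so such a value rests on replicate 1 labelled Selk-/-. Without the 2 low libraries it was 0.024 for mt-Rnr1 and -0.065 for mt-Rnr2, and without replicate 1 labelled Selk-/- it was -0.97 and -0.63. The genotype contrast of the rRNAs therefore rested on which of the 3 libraries labelled Selk-/- were used.

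**Figure D3:**
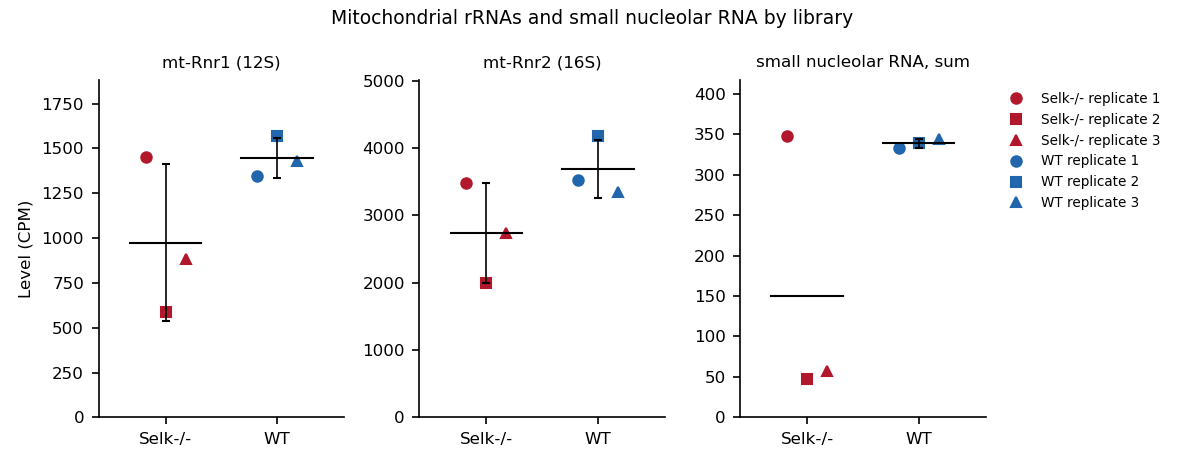
Level of mt-Rnr1, mt-Rnr2 and summed snoRNA in CPM, by library, in the group labelled Selk-/- and in WT; lines are means and bars SD (n = 3 each), with no bar for snoRNA in the Selk-/- group, where the SD exceeds the mean. In all 3 panels Selk-/- replicate 1 lies at or near the WT libraries and Selk-/- replicates 2 and 3 lie below it.

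The rRNAs did not differ by the same factor in each library. Both are cut from the same stretch of precursor, with mt-Tv between them. The count ratio of mt-Rnr2 to mt-Rnr1 was 2.39, 3.37 and 3.11 in libraries labelled Selk-/-, against 2.62, 2.66 and 2.34 in WT libraries. It was highest in the 2 libraries with the least rRNA, and the groups overlapped through replicate 1 labelled Selk-/-. Per protein gene count, without the counts at nuclear copies, rRNA counts were 0.142, 0.0740 and 0.0950 in libraries labelled Selk-/-. In WT libraries they were 0.152, 0.160 and 0.139. mt-Nd1, which follows mt-Rnr2 and mt-Tl1 on the genome, had 2944 and 3352 CPM in Selk-/- replicates 2 and 3, against 2983 to 3386 CPM in WT libraries.

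The protein genes differed little between the groups: 11 of the 13 had a log2 fold change within 0.15 of 0, 7 were above 0 and 6 below, and the median was 0.02. Only mt-Nd6 and mt-Cytb had groups that did not overlap (15.4%), both higher in libraries labelled Selk-/-. Over all genes tested the share was 26.2% in either direction and 12.5% in that direction. No protein gene passed edgeR's adjusted p of 0.05.

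Complex I, the NADH dehydrogenase that feeds electrons into the respiratory chain, has 7 subunits in this genome. mt-Nd1 had 3015, 2944 and 3352 CPM in libraries labelled Selk-/-, against 2983, 3386 and 3308 CPM in WT libraries. mt-Nd2 had 1909, 1966 and 2199 CPM in libraries labelled Selk-/-, against 1683, 2037 and 1807 CPM in WT libraries. Both sit in the membrane arm of the complex, and both overlapped between the groups, with log2 fold changes of -0.06 and 0.14. mt-Nd3 had 295, 245 and 323 CPM in libraries labelled Selk-/-, against 288, 349 and 318 CPM in WT libraries. mt-Nd4l had 344, 369 and 493 CPM in libraries labelled Selk-/-, against 385, 398 and 431 CPM in WT libraries. These small membrane-arm subunits overlapped too, with log2 fold changes of -0.14 and -0.01, and mt-Nd4l was both lowest and highest within the group labelled Selk-/-. mt-Nd4, which shares 1 precursor and some bases with mt-Nd4l, had 2789, 2601 and 3122 CPM in libraries labelled Selk-/-, against 2573, 2794 and 2862 CPM in WT libraries. mt-Nd5 had 2307, 2630 and 2918 CPM in libraries labelled Selk-/-, against 2369, 2393 and 2398 CPM in WT libraries. These antiporter-like subunits had log2 fold changes of 0.05 and 0.13. The WT libraries lay close together for mt-Nd5, with an SD of 15.4 CPM around 2387 CPM, while those labelled Selk-/- spread by an SD of 306 CPM around 2619 CPM.

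mt-Nd6, the only protein gene read from the light-strand precursor (MT positions 13552 to 14070), did not overlap between the groups and was the higher in libraries labelled Selk-/-. Its level was 577, 609 and 638 CPM in libraries labelled Selk-/-, against 500, 520 and 508 CPM in WT libraries, a log2 fold change of 0.26 (SE 0.0711; edgeR adjusted p = 0.137, DESeq2 adjusted p = 0.00591). Its 3′ end overlaps that of mt-Nd5 on the other strand, and no source used here says whether counting used strand, so reads of mt-Nd6 and of RNA antisense to it cannot be told apart. The count ratio of mt-Nd6 to mt-Nd5 was 0.250, 0.232 and 0.219 in libraries labelled Selk-/-, against 0.211, 0.217 and 0.212 in WT libraries. The ratio was higher in each library labelled Selk-/-, though replicate 3 exceeded the highest WT library by little. mt-Nd6 was singled out by its values in this contrast, so the separation of the ratio is a description.

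mt-Cytb, the cytochrome b of complex III that passes electrons from ubiquinol toward cytochrome c (MT positions 14145 to 15288), also did not overlap between the groups. It had 4684, 4775 and 5142 CPM in libraries labelled Selk-/-, against 3890, 4117 and 4326 CPM in WT libraries. The log2 fold change was 0.24 (SE 0.0773; edgeR adjusted p = 0.166, DESeq2 adjusted p = 0.0174). Set against mt-Nd1 at the start of the same strand, its count ratio was 1.55, 1.62 and 1.53 in libraries labelled Selk-/-, and 1.30, 1.22 and 1.31 in WT libraries. mt-Cytb too was singled out by its values in this contrast, so the separation of that ratio is a description. mt-Nd6, mt-Te and mt-Cytb, the members that DESeq2 called, follow each other on the genome. With the snoRNA split as a block their log2 fold changes were 0.18, 0.27 and 0.19.

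Complex IV, cytochrome c oxidase, which passes electrons to oxygen, has 3 catalytic core subunits here, and all overlapped between the groups. mt-Co1 had 10968, 11651 and 11603 CPM in libraries labelled Selk-/-, against 10261, 11474 and 10607 CPM in WT libraries. mt-Co2 had 2092, 1969 and 2220 CPM in libraries labelled Selk-/-, against 1901, 2199 and 2222 CPM in WT libraries. mt-Co3 had 2519, 2262 and 2659 CPM in libraries labelled Selk-/-, against 2276, 2841 and 2578 CPM in WT libraries. Their log2 fold changes were 0.08, -0.01 and -0.05, each smaller than or close to its SE of 0.0751, 0.0898 and 0.104. Complex V, the ATP synthase, has 2 membrane-sector subunits here, which share bases on the genome. mt-Atp6 had 2578, 2209 and 2692 CPM in libraries labelled Selk-/-, against 2328, 2775 and 2437 CPM in WT libraries. mt-Atp8 had 613, 603 and 746 CPM in libraries labelled Selk-/-, against 596, 709 and 634 CPM in WT libraries. Both overlapped, with log2 fold changes of -0.01 and 0.02, whose 95% intervals of -0.25 to 0.23 and -0.24 to 0.27 bound the difference these libraries could hide.

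By the deposited FPKM (fragment counts per unit of gene length and of library depth), which allow levels to be compared between genes, mt-Co1 stood above all other protein genes in each library. Its mean over the 6 libraries was 6117 FPKM, and mt-Cytb followed at 3342 FPKM and mt-Atp6 at 3132 FPKM. mt-Nd1, mt-Co3, mt-Atp8 and mt-Co2 then lay between 2818 and 2616 FPKM, with ranges that overlapped their neighbours. mt-Nd4 had 1725 FPKM and mt-Nd2 1586 FPKM. mt-Nd5 had 1169 FPKM, mt-Nd4l 1158 FPKM, mt-Nd6 917 FPKM and mt-Nd3 742 FPKM. Neighbours in this order were separated beyond their range over libraries after mt-Co1, after mt-Co2 and after mt-Nd2, and nowhere else. For 7 of these genes, mt-Nd3, mt-Nd4l, mt-Nd4, mt-Atp6, mt-Co1, mt-Co2 and mt-Co3, near-identical nuclear copies described below also held counts, so their levels and places in this order are uncertain. mt-Cytb averaged 3604 ± 195 FPKM in libraries labelled Selk-/- and 3080 ± 126 FPKM in WT libraries (SD, n = 3 each). It ranked 2 among the protein genes in each library labelled Selk-/-, and ranked 3, 4 and 2 in WT libraries.

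**Figure D4:**
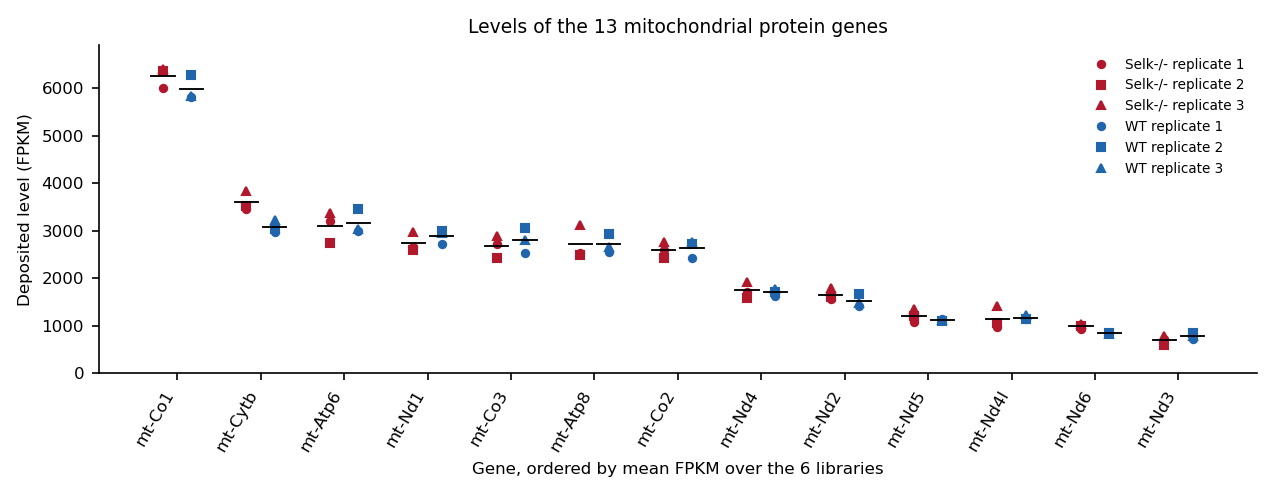
Deposited FPKM of the 13 mitochondrial protein genes by library, ordered by their mean over all 6 libraries, with the group labelled Selk-/- left of WT; markers are libraries and lines are group means. mt-Co1, at a mean of 6117 FPKM, stands above the rest, and the groups are apart for mt-Cytb and mt-Nd6.

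Nuclear genomes hold copies of mitochondrial DNA, and counts of some protein genes were shared with such copies. A stretch of chromosome 1 held 7 pseudogenes that matched mt-Co1, mt-Co2, mt-Atp6, mt-Co3, mt-Nd3, mt-Nd4l and mt-Nd4 at 99% identity or more over at least 200 bases. For the 5 of them that span at least 98% of the gene, the count at the copy was 95.5% to 104% of the count at the mitochondrial gene in every library. Gm10925, the copy of mt-Atp6 with 100% identity, had 73018, 59237 and 58988 counts in libraries labelled Selk-/-, where mt-Atp6 had 70341, 56876 and 56732. In WT libraries Gm10925 had 68251, 76401 and 71181 counts, and mt-Atp6 had 65583, 73400 and 68308. Whether reads that match both places were counted at each or divided between them is not stated in the sources used here, so the levels of these genes are uncertain. Gm28437 matched mt-Co3 and Gm28661 matched mt-Co2, both at 100%, while Gm29216 matched 483 bases of mt-Co1 at 99.8% and Gm28439 matched 876 bases of mt-Nd4 at 100%. The other 30 mitochondrial genes, among them both rRNAs, mt-Nd5, mt-Nd6 and mt-Cytb, had no such copy among the annotated genes examined. The tRNA genes, 59 to 75 bases long, could not meet the limit of 200 bases, and 7 of them had a shorter match outside chromosome MT. Copies outside annotated transcripts were not sought, so shared counts are not excluded for these 30 genes.

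The tRNA genes held the largest differences of any member. Of the 20 tested, 14 were higher in libraries labelled Selk-/- and 6 lower, with a median log2 fold change of 0.23. Groups did not overlap for 7 of them (35.0%), all higher in libraries labelled Selk-/-, against 26.2% of all genes in either direction and 12.5% in that direction. A log2 fold change of at least 1 was found for mt-Th, mt-Ts2 and mt-Tl2, a size reached by 1.63% of all genes tested.

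These 3 tRNA genes fill the 196 bases from 11546 to 11741 on chromosome MT, 1 base after mt-Nd4 and directly before mt-Nd5. mt-Th had 2.13, 2.52 and 1.85 CPM in libraries labelled Selk-/-, from 58, 65 and 39 counts, against 0.994, 1.10 and 1.03 CPM in WT libraries, from 28, 29 and 29 counts. mt-Ts2, whose product lacks the D arm in mammals, had 2.20, 2.68 and 2.04 CPM in libraries labelled Selk-/-, against 0.994, 1.29 and 0.856 CPM in WT libraries. mt-Tl2 had 3.08, 3.57 and 3.04 CPM in libraries labelled Selk-/-, against 1.28, 1.74 and 1.07 CPM in WT libraries. Each library labelled Selk-/- was above each WT library for all 3 genes. The log2 fold changes were 1.06 for mt-Th (SE 0.220; edgeR adjusted p = 0.106), 1.14 for mt-Ts2 (SE 0.245; adjusted p = 0.108) and 1.24 for mt-Tl2 (SE 0.239; adjusted p = 0.105). DESeq2 gave the 3 genes no adjusted p, because its filter on mean counts left them out.

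Summed over the trio, the level was 7.40, 8.78 and 6.93 CPM in libraries labelled Selk-/-, against 3.27, 4.12 and 2.96 CPM in WT libraries, a ratio of means of 2.23. The genes adjoin, and a fragment longer than a tRNA can be counted at more than 1 of them, so their agreement is not that of 3 independent genes. Relative to the flanking messenger RNAs the groups did not overlap either: per 1000 counts of mt-Nd4 and mt-Nd5, the trio had 1.45, 1.68 and 1.15 counts in libraries labelled Selk-/-, against 0.661, 0.795 and 0.563 in WT libraries. The trio was picked by its p-values in this contrast, so the separation of its sum and of this ratio is a description. Over the alternatives run, the log2 fold change lay between 0.94 and 1.17 for mt-Th, 1.03 and 1.32 for mt-Ts2, and 1.11 and 1.46 for mt-Tl2. That range includes the snoRNA split as a block, with 1.03, 1.07 and 1.17.

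mt-Te, the glutamate tRNA whose bases are shown above, had 47.2, 49.9 and 51.1 CPM in libraries labelled Selk-/-, against 40.0, 39.4 and 37.7 CPM in WT libraries. The groups did not overlap, and the log2 fold change was 0.34 (SE 0.0673; edgeR adjusted p = 0.106, DESeq2 adjusted p = 0.00627). mt-Ts1, the other serine tRNA, had 49.4, 48.1 and 46.2 CPM in libraries labelled Selk-/-, against 42.0, 45.9 and 41.2 CPM in WT libraries. Its groups did not overlap either, by a margin of 46.2 against 45.9 CPM, with a log2 fold change of 0.15.

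**Figure D5:**
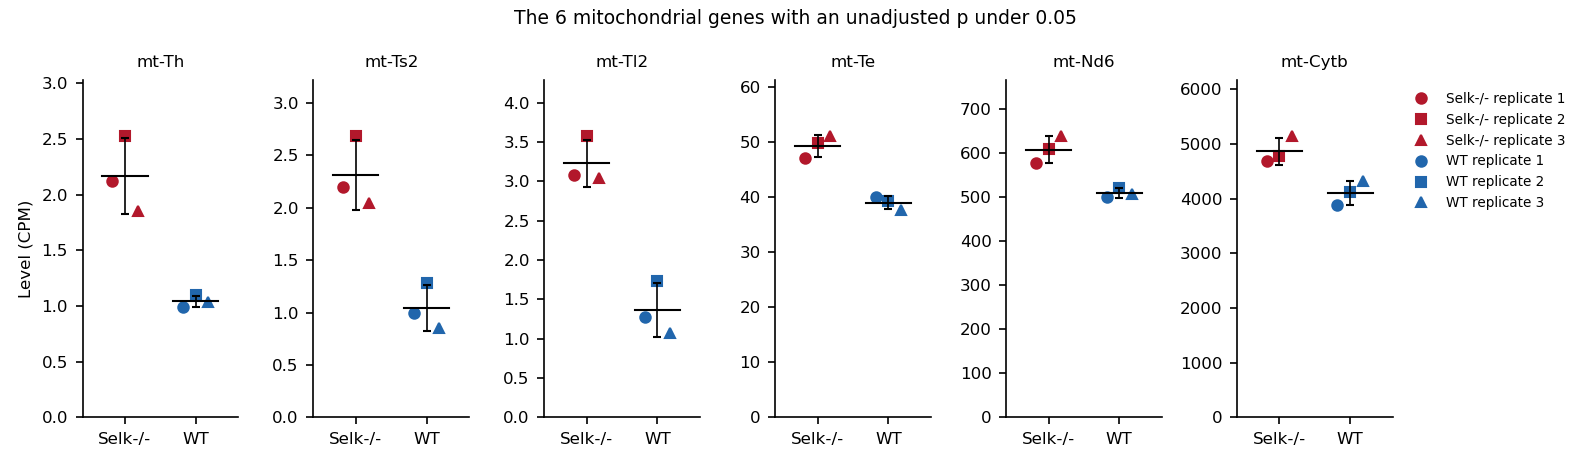
Level in CPM, by library, of the 6 mitochondrial genes with an unadjusted edgeR p under 0.05, in the group labelled Selk-/- and in WT; lines are means and bars SD (n = 3 each). In every panel all 3 Selk-/- libraries lie above all 3 WT libraries, by a log2 fold change of 1.06 to 1.24 in the 3 panels on the left and of 0.24 to 0.34 in the 3 on the right. The genes were chosen by that p, so this separation is a description.

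Among the other abundant tRNAs the groups overlapped. mt-Tl1, the second leucine tRNA, which follows mt-Rnr2, had 26.2, 28.5 and 32.8 CPM in libraries labelled Selk-/-, against 24.5, 27.7 and 25.7 CPM in WT libraries. mt-Tn, the asparagine tRNA, had 23.5, 24.1 and 25.3 CPM in libraries labelled Selk-/-, against 27.9, 31.9 and 21.2 CPM in WT libraries. mt-Ta, the alanine tRNA next to it, had 20.1, 20.01 and 21.5 CPM in libraries labelled Selk-/-, against 22.2, 25.2 and 17.3 CPM in WT libraries. Libraries labelled Selk-/- lay within the WT range for mt-Tn and mt-Ta. The remaining 14 tRNAs had 0.178 to 16.7 CPM, and the 12 of them that were tested had log2 fold changes of -0.08 to 0.39, 8 above 0 and 4 below. Of these 12, mt-Tw and mt-Tt had groups that did not overlap, against 26.2% of all genes tested. A mean below 100 counts was found for 12 of the 22 tRNAs, so small differences were not detectable at this depth.

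The tRNAs of the light-strand precursor had a higher median level than those of the heavy-strand precursor, whose tRNAs lie between messenger and ribosomal RNAs. Their ranges overlapped, with mean levels of 2.52 to 45.5 CPM for light-strand tRNAs and 0.251 to 27.6 CPM for heavy-strand tRNAs. The 8 light-strand tRNAs had a median level of 218 FPKM and the 14 heavy-strand tRNAs 18.9 FPKM, over all 6 libraries. The light-strand sum was 173, 177 and 179 CPM in libraries labelled Selk-/-, against 166, 182 and 146 CPM in WT libraries. The heavy-strand sum was 49.0, 54.8 and 57.9 CPM in libraries labelled Selk-/-, against 41.5, 48.3 and 41.2 CPM in WT libraries. Light-strand sums overlapped between the groups and heavy-strand sums did not, by a margin of 49.0 against 48.3 CPM. The heavy-strand sum holds mt-Th, mt-Ts2 and mt-Tl2, with 7.40 CPM in Selk-/- replicate 1 and 4.12 CPM in WT replicate 2. That gap exceeds the margin, so without these 3 genes the heavy-strand sums overlap too. The median log2 fold change was -0.03 over the 8 light-strand tRNAs, 3 above 0 and 5 below, and 0.37 over the 12 tested heavy-strand tRNAs, 11 above 0 and 1 below. These 12 include mt-Th, mt-Ts2 and mt-Tl2, and the difference between the strands was not tested. Both strands of the circle are transcribed, so without strand handling a count at a tRNA gene may hold RNA antisense to it.

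Nuclear genes with roles in mitochondria were read from 8 lists, 241 genes in all. The lists cover the copying, processing and translation of mitochondrial DNA and RNA, and also assembly, quality control, mitochondrial mass and mitophagy. None passed edgeR's adjusted p of 0.05. At an unadjusted p under 0.05, 15 were higher and 41 lower in libraries labelled Selk-/- (23.2%, against 19.1% of all genes), and the median log2 fold change was -0.05, against -0.01 over all genes. Of the 228 to which DESeq2 gave an adjusted p, it called 4 higher (1.75%) and 6 lower (2.63%), both below the shares over all genes of 5.27% and 3.88%. By list, the share at an unadjusted p under 0.05 in either direction was 20.8% for replication and transcription, 17.4% for RNA processing, 11.1% for RNA modification and 18.2% for aminoacyl-tRNA synthetases. It was 27.7% for ribosomal proteins, 14.3% for translation factors, 33.3% for assembly and quality control, and 25.9% for mitochondrial mass and mitophagy. Over all genes it was 19.1%, with 9.34% higher and 9.74% lower. The counts per list below stand against these shares, and nothing particular to a list is read from its count.

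Of the 24 genes of mitochondrial DNA replication and transcription, 14 were above 0 and 10 below, with 2 higher and 3 lower at an unadjusted p under 0.05. The DNA polymerase Polg had a log2 fold change of 0.06, the packaging and transcription factor Tfam -0.05, the RNA polymerase Polrmt 0.05, and the transcription factor Tfb2m 0.36. Polrmt had 24.9, 21.99 and 26.2 CPM in libraries labelled Selk-/-, against 21.1, 24.99 and 24.7 CPM in WT libraries, which overlapped. Tfb2m had 22.02, 18.02 and 19.9 CPM in libraries labelled Selk-/-, against 14.9, 14.6 and 17.3 CPM in WT libraries, with no overlap. The thymidine kinase Tk2, at -0.34, was the 1 member DESeq2 called, as lower, and the protease Lonp1 was at -0.03. Of the 23 RNA processing genes 15 were above 0 and 8 below, with 3 higher and 1 lower at that p. Hsd17b10, a subunit of the nuclease that cuts tRNA 5′ ends, was at -0.19, Lrpprc, which stabilises mitochondrial messenger RNAs, at 0.15, Trnt1, which adds CCA to tRNA ends, at 0.28 and Angel2 at 0.04.

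Of the 27 rRNA and tRNA modification genes 9 were above 0 and 18 below, with 0 higher and 3 lower at an unadjusted p under 0.05. Trub2, which acts on 16S rRNA, was at -0.35, Tfb1m, the 12S rRNA dimethyltransferase, at 0.30, Nsun2 at -0.06 and Trmt1 at -0.02. Of the 22 aminoacyl-tRNA synthetase genes 8 were above 0 and 14 below, with 1 higher and 3 lower at that p. Ears2, which charges the glutamate tRNA mt-Te, was at 0.34, Gatc at -0.31, and Gars and Kars each at -0.08.

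Mitochondrial ribosomal proteins assemble on mt-Rnr1 and mt-Rnr2, and a link between their levels and those of the rRNAs was not tested. Of the 83 genes on that list 23 were above 0 and 60 below, where 48.7% of all genes were above 0, and the median was -0.12. At an unadjusted p under 0.05, 0 were higher and 23 lower (27.7%), against 9.34% of all genes higher and 9.74% lower. DESeq2 called 3 of them, all lower: Mrpl27 at -0.77, and Mrpl17 and Mrpl43, each at -0.47 and named after their values were seen. Over all genes it called 3.88% as lower, a share near that of 3 in 83. Mrpl27 had 9.64, 9.17 and 8.92 CPM in libraries labelled Selk-/-, against 17.04, 16.8 and 13.6 CPM in WT libraries (edgeR adjusted p = 0.105). The rule that named Mrpl27 took the gene of the list with the smallest p among those lower, so its separation is a description. The most abundant of the list, Mrpl48 and Mrpl24, were at -0.11 and 0.06, and Ptcd3 was at 0.17. Of the 14 translation factor genes 7 were above 0 and 7 below, with 1 higher and 1 lower at that p. Mtrf1l, a release factor, was at 0.33, the initiation factor Mtif2 at -0.20, the recycling factor Gfm2 at 0.07 and the insertase Oxa1l at 0.0019.

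In the assembly and quality control list of 24 genes, 8 were above 0 and 16 below, with 3 higher and 5 lower at an unadjusted p under 0.05. Yme1l1, an inner membrane protease, had 172, 181 and 171 CPM in libraries labelled Selk-/-, against 129, 145 and 149 CPM in WT libraries, a log2 fold change of 0.31. Phb2, a prohibitin, had 56.0, 50.3 and 55.2 CPM in libraries labelled Selk-/-, against 73.2, 70.1 and 63.7 CPM in WT libraries, a log2 fold change of -0.36, and Phb was at -0.13. DESeq2 called Yme1l1 higher and Phb2 lower. In the list of mitochondrial mass and mitophagy genes, 13 of 27 were above 0 and 14 below, with 5 higher and 2 lower at that p. Hspd1, the matrix chaperonin, had 123, 194 and 200 CPM in libraries labelled Selk-/-, against 89.8, 104 and 109 CPM in WT libraries, a log2 fold change of 0.77. Tomm20, a receptor of the outer membrane import pore, had 85.5, 76.8 and 84.8 CPM in libraries labelled Selk-/-, against 115, 109 and 97.7 CPM in WT libraries, a log2 fold change of -0.38. DESeq2 called Hspd1 higher and Tomm20 lower, and also Hspe1 (0.44) and Tomm70a (0.30), named after their values were seen, as higher. The channel Vdac2 was at -0.09 and the mitophagy receptor Bnip3l at 0.0045.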

How the data were processed

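RNA-seq of 3 libraries labelled Selk-/- and 3 WT libraries was used as 1 deposited table of raw counts and of FPKM values per gene. The authors used Hisat2 2.0.5 for alignment and stringtie 2.2.0 for quantification, per the labels' protocols, and deposited counts and FPKM. Per the submitters' processing notes, tools included Bowtie 0.12.2, with mm8 and mm9 as builds, at odds with the protocols. The table names no build. The start and end of all 37 mitochondrial genes were those of GENCODE M21 (GRCm38), as was the start of 1499 of 52081 genes overall. No source used here states whether counting used strand or how reads with several matches were counted. The table gave no symbol for the mitochondrial genes, and a table of reference names supplied all 37 by gene ID. Samples were grouped by the genotype label, and replicate numbers follow the order of the samples.

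The test was that of edgeR 4.0.16 in R 4.3.3, on the counts (TMM scaling, filterByExpr, robust quasi-likelihood fits, two-sided, Benjamini-Hochberg adjustment over 17739 genes, adjusted p of 0.05). CPM use TMM-scaled totals, and SEs come from the quasi-likelihood F statistic. Sums over members were given no test. On simulated counts for the comparison of Selk-/- with WT over 17739 genes, 34.3% of 1.5-fold changes, 55.2% of 2-fold changes and 86.4% of 4-fold changes were called, beside 14 false calls. Whether these shares hold for the deposited counts, where 0 of 17739 genes passed, was not tested. Nuclear copies were matched with BLAST+ 2.17.0, and other steps used Python 3.11.15.

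The members and lists were chosen with earlier results of these data known. The named genes were both rRNAs, the 13 protein genes, the 5 tRNAs with the highest mean CPM and each tRNA with an unadjusted p under 0.05. In each nuclear list they were the 2 with the highest mean CPM, the 1 with the smallest p in each direction, and Polg, Tfam, Polrmt and Lrpprc; up to 5 nuclear copies were named. One listed gene, Alkbh1, had no match by symbol. Alternatives were DESeq2 size factors, library totals only, totals without mitochondrial genes, scaling to the mitochondrial protein counts, a filter of at least 10 CPM in 3 libraries, none at all, limma 3.58.1 with voom or on log2(FPKM + 1) and log2(FPKM + 0.1) with a mean of at least 1 FPKM or no filter, each library left out, DESeq2 1.42.0, and both libraries titled with 2 numbers left out. The snoRNA split, with libraries under 0.5 of the median sum, was used as a block or to leave libraries out, and was chosen after seeing the data.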

Additional observations from a re-analysis of the deposited data

How the results depend on the processing

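No mitochondrial gene passed an adjusted p of 0.05 in any setting but DESeq2, which called 3. Over all genes the adjusted count of 0 became 92 with at least 10 CPM in 3 libraries and 1056 with DESeq2, and 0 to 59 with a library left out, 59 without Selk-/- replicate 1 and 1 without Selk-/- replicate 2. In the nuclear mitochondrial lists the count of 0 became 1 with the 10 CPM filter, 10 with DESeq2, and 0 to 1 with a library left out. The count of 6 mitochondrial genes at an unadjusted p under 0.05 became 3 of 21 tested with the 10 CPM filter, against 2752 of all 10051 genes. It became 11 of 37 with limma on log2(FPKM + 1) or log2(FPKM + 0.1), against 3082 and 3102 of all 13639 genes. With a library left out it was 5 to 10. The low end was 5 of 35 without WT replicate 1, against 2248 of all 18031 genes. The high end was 10 of 35 without Selk-/- replicate 1, against 3210 of all 18144 genes. Under the snoRNA block the contrast rests on Selk-/- replicate 1, so no count is given for it. The log2 ratio of the rRNA sums, -0.47, became -0.059 without both low-snoRNA libraries.

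Alternatives were run for both rRNAs, the 13 protein genes and 8 tRNAs, while the single values of the other 14 tRNAs were not recomputed. Among the genes recomputed, the log2 fold changes of mt-Rnr1, 7 protein genes and 1 tRNA changed sign in some setting, and the cause was not tested. With the snoRNA block they became 0.0039 for mt-Rnr1, -0.078 for mt-Atp8, 0.037 for mt-Atp6 and -0.049 for mt-Nd5. Without both low-snoRNA libraries they became 0.024 for mt-Rnr1, 0.0095 for mt-Co2, -0.058 for mt-Atp8, 0.056 for mt-Atp6 and -0.030 for mt-Nd5. With voom they became 0.011 for mt-Co2, 0.0096 for mt-Atp6 and 0.086 for mt-Nd4l. Without both libraries titled with 2 numbers they became 0.00065 for mt-Co2 and -0.088 for mt-Atp8. mt-Atp8 was at -0.013 with no filter and -0.0041 (log2(FPKM + 1)) and -0.0042 (log2(FPKM + 0.1)) in the FPKM settings, and, scaled to the mitochondrial protein counts, mt-Atp8 was at -0.056 and mt-Nd4 at -0.025. With a library left out, values ranged from -0.080 to 0.050 for mt-Co2, -0.072 to 0.094 for mt-Atp8, -0.066 to 0.085 for mt-Atp6, -0.13 to 0.036 for mt-Co3, -0.17 to 0.10 for mt-Nd4l, -0.0085 to 0.12 for mt-Nd4 and -0.20 to 0.058 for mt-Ta.

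No paired analysis was possible because 6 is the only number that makes up the whole number of a title in both groups. The number 3 stands alone in a WT title and beside 1 in a title labelled Selk-/-, nothing says that these numbers mark shared animals or batches, and the replicate numbers follow the order of the samples. Depth limits the tRNAs most: 12 of 22 had a mean under 100 counts. A fit that leaves 1 library labelled Selk-/- assumes that it varies like the WT libraries. No scaling moved the median log2 fold change of all genes by over 0.1.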
